A study of Mus musculus with 98 samples.

Results

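Il22-positive innate lymphoid cells (ILCs) regenerated from mouse pluripotent stem cells were compared with Il22-negative cells of the same sort. A cell was taken as positive at an Il22 level of 1 TPM or more and as negative below it (TPM, the transcript abundance scaled to the same total in each cell), so the cells were chosen by their measured Il22 level. By this rule 21 of the 67 regenerated cells, called R9-ILCs, were positive and 46 were negative, among 98 single-cell columns in the series. All 67 cells came from the intestine of Rag2-/-Il2rg-/- recipients, animals that lack T, B and natural killer cells, 3 weeks after transplantation. They were sorted as single CD45.2+GFP+Lin-CD127+ cells and carry the strain label C57BL/6. The other group of the series, WT-ILCs, was sorted as CD45.2+Lin-CD127+ cells from intestine of 8-week-old C57BL/6 wild-type animals and serves here as a second set of cells in which the same split by Il22 could be made. No animal, donor clone or stimulus is named in the labels, so the positive and negative cells of each set were treated as 1 sample and no p-value was made from cells.

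ILCs are lymphocytes without rearranged antigen receptors. The group 3 cells among them, ILC3s, are a main source of interleukin 22 in the gut. Myeloid cells release interleukin 23, which acts through Il23r and Stat3 to switch on Il22, and interleukin 1β, which acts through Il1r1. The secreted interleukin 22 acts on epithelial cells, where it induces antimicrobial proteins such as Reg3g and Reg3b. Lymphoid tissue inducer (LTi)-like ILC3s are marked by Ccr6, and another ILC3 subset by the receptor NKp46, encoded by Ncr1.

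The ILC label was set beside marker genes in both groups. Id2, a repressor that all ILCs need, and Il7r, which encodes the CD127 of the sort gate, were at 1 TPM or more in 21 of 21 positive and 46 of 46 negative cells. Because the cells were sorted on CD127, Il7r is no separate check of the label. Tbx21, the defining factor of group 1 ILCs, reached 1 TPM in 1 positive and 1 negative cell. Klrb1b, from the same list of NKp46-positive ILC3, group 1 ILC and natural killer cell genes, did so in 20 positive and 44 negative cells. Mast cell and macrophage genes were also seen and are given further on. T cell genes were mixed. Cd5, Cd8a, Cd8b1 and Themis were listed at 0 in every R9 cell. The signalling genes Lat, Zap70 and Lck and the receptor chain Cd3g reached 1 TPM in 53, 48, 39 and 34 of the 67 cells. The other receptor chains were sparse, with Cd3e in 2, Cd3d in 1 and Cd247 in 7 of the 67 cells. Cd3g reached 1 TPM in 14 of 21 positive and 20 of 46 negative cells.

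R9 titles come in 2 series, one without a numeric ending (32 cells) and one with the ending 1 (35 cells). The labels do not say what the ending stands for, and the 2 series differed in their values, so every difference below was made inside each title series. Genes reaching 1 TPM per cell numbered from 1760 to 2638 (median 2188) in the 8 positive cells without an ending and from 1187 to 2989 (median 2040.5) in the 24 negative cells without an ending. With the ending 1 it ranged from 1913 to 5787 (median 2248) in the 13 positive cells and from 2052 to 6042 (median 2466.5) in the 22 negative cells. The leading gene of a cell took at least 10% of its TPM in 6 of 8 positive and 20 of 24 negative cells without an ending, and in 1 of 13 positive and 0 of 22 negative cells of ending 1. Gapdh, a housekeeping gene, had a 0 in 6 of 8 positive and 18 of 24 negative cells without an ending, so an exact 0 in these tables can be a failed estimate and is written here as "listed at 0".

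Il22 lies on mouse chromosome 10 at 118204942 to 118210047 (GRCm38, the same build as mm10, plus strand). A near-identical copy, Iltifb, lies nearby on the minus strand at 118289629 to 118295038. The coding sequences of the pair have the same length of 540 bases with the stop codon, differ at 9 bases (98.33% identity) and share a longest stretch of 215 bases without a difference, so reads can be shared between them. Their first coding exons, of 186 bases each, are shown because they show how little separates the gene that defines the groups from its copy. The capitals mark the 2 bases that differ. Both are GENCODE M21 transcript sequence, at chr10:118204991-118205176 (plus strand) for Il22 and chr10:118294804-118294989 (minus strand) for Iltifb, 5′ to 3′.
Il22: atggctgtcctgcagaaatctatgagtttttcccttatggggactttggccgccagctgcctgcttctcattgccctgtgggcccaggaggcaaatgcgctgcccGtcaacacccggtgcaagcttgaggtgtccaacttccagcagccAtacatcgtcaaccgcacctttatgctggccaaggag
Iltifb: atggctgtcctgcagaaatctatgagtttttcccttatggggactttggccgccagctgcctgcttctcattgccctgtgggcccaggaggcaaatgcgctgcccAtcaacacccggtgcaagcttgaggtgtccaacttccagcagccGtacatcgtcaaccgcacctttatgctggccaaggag

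Il22 itself chose the groups, and its levels are given as a description. Positive cells made up 31.3% of all R9 cells (exact Clopper-Pearson 95% interval 20.6 to 43.8), 8 of the 32 cells without an ending (25%, 11.5 to 43.4) and 13 of the 35 cells of ending 1 (37.1%, 21.5 to 55.1). All 46 negative cells were listed at exactly 0, and the lowest positive cell was at 1.59 TPM. The threshold therefore fell in an empty gap.

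Levels inside the positive cells differed between the title series. The 8 positive cells without an ending were at 576, 267, 162, 129, 105, 75.1, 58.5 and 20.5 TPM. The 13 positive cells of ending 1 ranged from 1.59 to 882 TPM with a median of 5.24 TPM. Of these, 3 cells stood high at 882, 512 and 197 TPM, 1 more was at 11 TPM, and the other 9 were all between 1.59 and 6.30 TPM. No positive cell without an ending was that low. Values from 1 to 10 TPM made up 36.2% of all gene values at 1 TPM or more in cells of ending 1, against 10.6% in cells without an ending, so low values were more frequent there for genes in general.

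At a threshold of 10 TPM, 12 of 67 cells stayed positive (17.9%, interval 9.61 to 29.2), 8 of 32 without an ending and 4 of 35 of ending 1. At 100 TPM, 8 of 67 cells did. Among WT-ILCs, 22 cells after columns of similar values had been joined, 6 were positive (27.3%, 10.7 to 50.2), at 283, 40.5, 19.6, 17.6, 5.16 and 1.44 TPM. The copy Iltifb was above 0 in 3 R9 cells, the 3 highest cells of ending 1, at 11.7, 10.2 and 3.78 TPM, which was 1.32%, 1.99% and 1.92% of the Il22 level of the same cell. It was listed at 0 in all 46 negative cells and in all 8 positive cells without an ending.

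**Figure D1:**
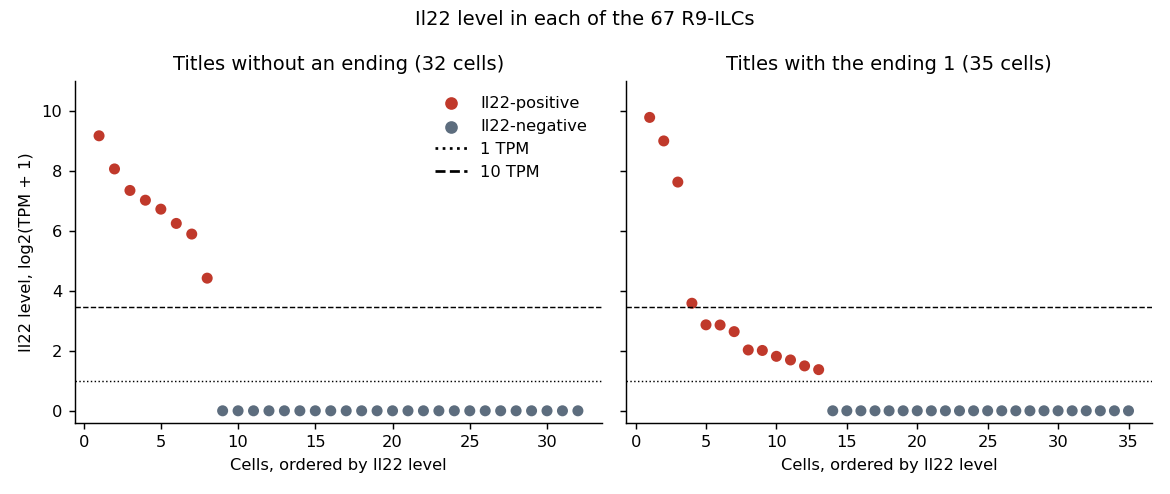
Il22 level of each R9-ILC as log2(TPM + 1) (vertical axis), with cells ordered by level (horizontal axis), in cells without a title ending (left) and of title ending 1 (right); red points are positive and grey points negative cells, and the lines mark 1 and 10 TPM. The 8 positive cells on the left all lie above 10 TPM, whereas 9 of the 13 on the right lie between 1 and 10 TPM, and every negative cell is at 0.

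The positive and negative cells were then compared across the transcriptome. For each of the 5293 genes that reached 1 TPM in at least 10 R9 cells, the difference of the mean log2(TPM + 1), positive minus negative, was made inside each title series and the 2 differences were averaged. This scale understates differences of low genes. A gene was called higher or lower at an average difference of at least 1 in size with the same sign in both series. By this rule 547 genes (10.3%) were called higher and 287 (5.42%) lower in positive cells, 15.8% in either direction. The median average difference over all genes was 0.12, with 0.25 in cells without an ending and -0.03 in cells of ending 1.

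The 2 title series did not rank genes alike. The same sign in both series was seen for 2560 of 5293 genes (48.4%). Across genes, which are not independent replicates because all were measured in the same cells, the differences of the 2 series had a Pearson r of 0.0038 and a Spearman rho of -0.00054. A difference of 1 or more was reached by 1265 genes (23.9%) without an ending and by 788 genes (14.9%) with the ending 1. These lists shared 192 genes, 15.2% of the one and 24.4% of the other. At -1 or less the lists held 523 genes (9.88%) and 903 genes (17.1%) and shared 95, 18.2% and 10.5% of them. Under 9 other settings of the threshold, scaling, filters and cells, r between the series lay between -0.0050 and 0.014, and the share of genes with 1 sign between 48.0% and 49.4%.

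**Figure D2:**
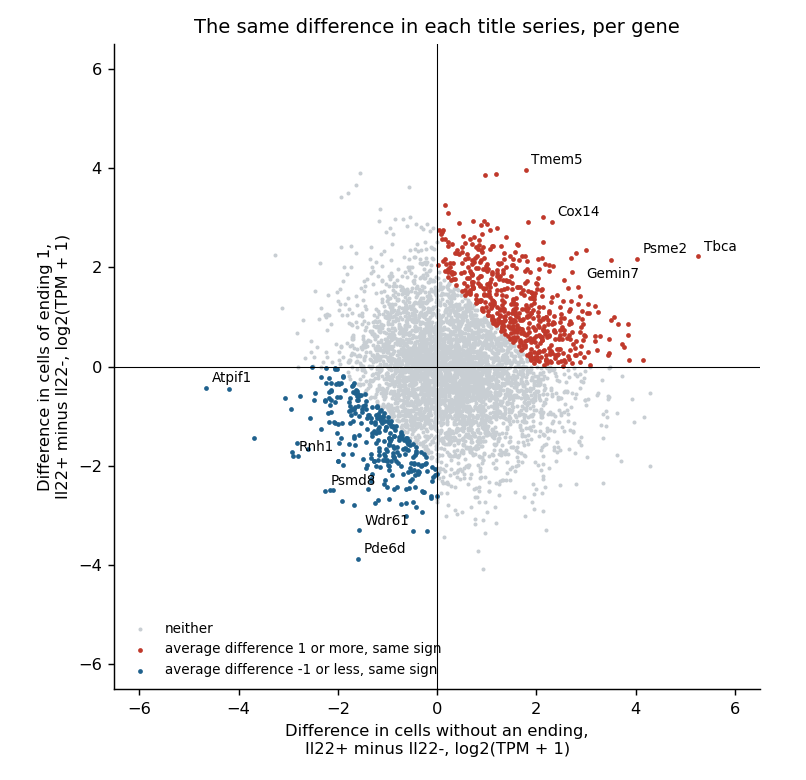
Difference of mean log2(TPM + 1), Il22-positive minus Il22-negative, in cells without a title ending (horizontal axis) and in cells of title ending 1 (vertical axis), 1 point per gene; red genes were called higher, blue genes lower and grey genes neither. The cloud is round, with 48.4% of genes in the 2 quadrants of equal sign, and the named genes with the largest average differences lie at the edge of those quadrants.

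In wild-type cells, split by the same rule into 6 positive and 16 negative cells, the difference had the same sign as in R9 cells for 279 of the 546 called higher genes with a difference there (51.1%) and for 142 of 285 called lower genes (49.8%). Over all genes used the share was 49.9%. The called genes thus had the R9 direction in wild-type cells about as often as genes in general. When all 31 wild-type columns were counted as cells, the share was 61.9% for called higher and 34% for called lower genes, against 51.0% over all genes used. In that setting 3433 of 5260 genes were higher in the positive wild-type columns, and the median over all genes moved to 0.34.

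None of the 30 ILC3 genes described further on was among the 24 leading genes, 12 in each direction. The 12 highest, taken from genes seen in 50% or more of the positive cells of each series, were Tbca, Psme2, Tmem5, Gemin7, Cox14, Cdipt, Sdhc, Serp1, Ube2v1, Zcchc17, Ndufs8 and Ppp1r11, from 3.75 down to 2.22. The 12 lowest, with the same limit on the negative cells, were Pde6d, Atpif1, Wdr61, Psmd8, Rnh1, Hmox2, Zfp622, Gnai3, Dap, Krcc1, Sf3b2 and Rsu1, from -2.74 to -1.90. The ranges of positive and negative cells overlapped in both series for all 24 genes. In wild-type cells 4 of the 12 highest and 7 of the 12 lowest had the same sign.

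Tbca, a chaperone that helps fold β-tubulin (chromosome 13, 94788910 to 94842922), stood first. Without an ending it was at 0, 361 and 803 TPM (lowest, median and highest) in positive cells, against 0, 0 and 573 TPM in negative cells. In the other series, of ending 1, it was at 0, 284 and 1516 TPM in positive cells, against 0, 1.60 and 1577 TPM in negative cells. Of the 8 positive cells without an ending 7 were high and 1 was at 0, while most negative cells without an ending were at 0 and a minority was as high as the positive cells. The mean log2 level was 7.52 ± 3.09 in positive and 2.26 ± 3.64 in negative cells without an ending, and 5.56 ± 4.42 in positive and 3.33 ± 4.13 in negative cells of ending 1 (SD over cells). Tbca was at 1 TPM or more in 17 of 21 positive cells (81.0%, exact interval 58.1 to 94.6) and 18 of 46 negative cells (39.1%, 25.1 to 54.6). In wild-type cells its difference was -0.05.

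Psme2, a subunit of the proteasome activator PA28, has a near-identical copy elsewhere in the mouse genome, so its values are uncertain. It was at 0, 244 and 13575 TPM in positive cells without an ending, against 0, 0 and 54536 TPM in negative cells, and its average difference was 3.10. Among cells of ending 1 it was at 344, 1360 and 2526 TPM in positive cells, against 0, 667 and 2204 TPM in negative cells. All 13 positive cells of ending 1 were high, and so were most of the negative ones. Its wild-type difference was -1.63.

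Tmem5, which encodes a glycosyltransferase that modifies dystroglycan, was among the sparser genes. It was at 0, 4.87 and 178 TPM in positive cells without an ending, against 0, 0 and 257 TPM in negative cells. With the ending 1 it was at 0, 7.38 and 1229 TPM in positive cells, against 0, 0 and 206 TPM in negative cells. It reached 1 TPM in 13 of 21 positive cells (61.9%, 38.4 to 81.9) and 8 of 46 negative cells (17.4%, 7.82 to 31.4), and 3 of the 22 negative cells of ending 1 had it. Its wild-type difference was -2.14.

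Among the other high genes, 3 encode parts or assembly factors of the respiratory chain, namely Cox14 (2.62), Sdhc (2.45) and Ndufs8 (2.25), chosen for mention after their values were seen. Cox14 was at 0, 215 and 526 TPM in positive cells without an ending, against 0, 45.7 and 520 TPM in negative cells. In cells of ending 1 its median was 537 TPM in positive and 15.8 TPM in negative cells. The respiratory chain was not a list here, and Atpif1, which inhibits the mitochondrial ATP synthase, was among the lowest genes. Serp1, a small protein of the endoplasmic reticulum, reached 413566 TPM in 1 positive cell without an ending, and its median there was 536 TPM in positive and 214 TPM in negative cells. Its average difference was 2.38, and 1.81 without the highest positive and negative cell of each series.

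Pde6d, a carrier of prenylated proteins, led the lower genes. It was at 0, 0 and 797 TPM in positive cells without an ending, against 0, 57.2 and 469 TPM in negative cells. Among cells of ending 1 it was at 0, 7.0 and 1733 TPM in positive cells, against 1.68, 831 and 2523 TPM in negative cells. Most negative cells of ending 1 were high, and the positive ones were spread over the whole range. Its wild-type difference was 1.74, of the opposite sign.

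Rnh1, the ribonuclease inhibitor, was at 0 in 7 of the 8 positive cells without an ending and at 221 TPM in the remaining cell, against 0, 37.1 and 620 TPM in negative cells. In the other series, of ending 1, it was at 1.3, 4.59 and 1515 TPM in positive cells, against 0, 565 and 1941 TPM in negative cells. The average difference of Atpif1 was -2.54, but it rested on the cells without an ending (-4.65, against -0.43 with the ending 1). Without the positive cell R9-ILC-24-1 the difference of ending 1 was 0.02 and Atpif1 was no longer called.

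Seen as shares of cells with 1 TPM or more, the widest gaps were those of Zfp622 and Rsu1 among lower genes. Zfp622 was seen in 3 of 21 positive cells (14.3%, 3.05 to 36.3) and 27 of 46 negative cells (58.7%, 43.2 to 73.0). Rsu1, a partner of integrin adhesion complexes, was seen in 7 of 21 positive cells (33.3%, 14.6 to 57.0) and 34 of 46 negative cells (73.9%, 58.9 to 85.7). Gab3, a signalling adaptor, was seen in 1 of 21 positive and 20 of 46 negative cells. Mcm7, a subunit of the replication helicase, was seen in 3 of 21 positive cells (14.3%, 3.05 to 36.3) and 26 of 46 negative cells (56.5%, 41.1 to 71.1). Among higher genes, Galnt12, a glycosyltransferase of mucin-type chains, was seen in 11 of 21 positive and 6 of 46 negative cells.

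Exons of 10 of the 23 leading genes found in the annotation overlap an exon of another gene, for example Serp1 with Eif2a and Zcchc17 with Fabp3. The labels name no strand-specific kit, so such reads cannot be told apart and those values are uncertain. Since the 24 leading genes were chosen for large differences of 1 sign in these same cells, their stability in these cells was largely set by that choice. With each positive cell left out in turn, 23 of the 24 leading genes were called every time. The call of Atpif1 was lost only without R9-ILC-24-1. At an Il22 threshold of 10 TPM the average difference was 0.71 for Serp1, -0.89 for Wdr61, -0.94 for Krcc1 and -0.19 for Rsu1. At that threshold the 2 series also had opposite signs for Serp1, Rsu1, Ndufs8 and Gnai3, and none of these 6 genes was called.

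**Figure D3:**
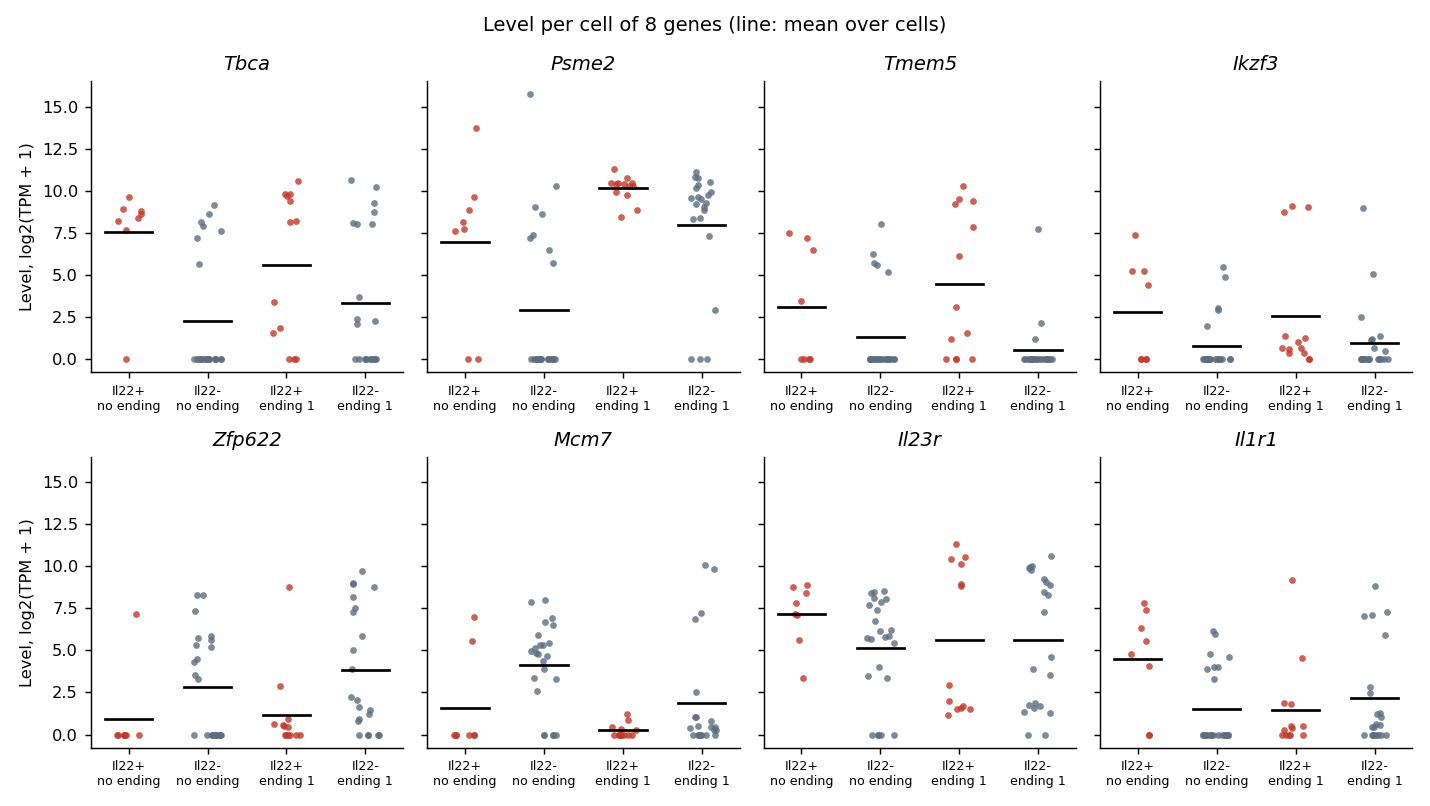
Level per cell as log2(TPM + 1) of 8 genes, in positive then negative cells without a title ending and positive then negative cells of title ending 1; points are cells and lines are means over cells. Tbca shows 7 of 8 positive cells without an ending above 7 while most negative cells are at 0, Zfp622 and Mcm7 show the reverse, and the groups overlap for Il23r and Il1r1.

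The known inducers of Il22 were examined next, from a set of 30 ILC3 receptors, regulators and effectors of which 24 were measured in enough cells. Of these 24 genes, 2 were called higher (Tnfsf11 and Il2ra) and 1 lower (Thy1), beside 10.3% and 5.42% of all genes, and 8 of 24 had the same sign in both series. Il1rap, Ahr, Irf4, Tbx21, Il17a and Il17f were left out as too sparse. Il17f reached 1 TPM in 0 positive and 2 negative cells, and Il17a in none of the 67 cells.

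Il23r, the interleukin 23 receptor chain on chromosome 6, was at 1 TPM or more in 21 of 21 positive and 39 of 46 negative cells. Without an ending it was at 9.29, 184 and 483 TPM in positive cells, against 0, 55.7 and 368 TPM in negative cells. No positive cell was at 0 there and 5 of 24 negative cells were below 1 TPM, and the ranges overlapped. In cells of ending 1 it was at 1.27, 6.85 and 2523 TPM in positive cells, against 0, 88.8 and 1552 TPM in negative cells, and the mean log2 level was 5.59 in both. The average difference was 1.01, made up of 2.01 without an ending and none with the ending 1, so it was not called. Inside the positive cells of ending 1, the 4 cells with Il22 at 10 TPM or more had Il23r at 6.85, 495, 1395 and 2523 TPM. The 9 cells with Il22 below 10 TPM had it at 1.27, 2.25 and 1512 TPM (lowest, median and highest), so the ranges overlapped. This split was made after the levels were seen and is a description.

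Il1r1, the interleukin 1 receptor, was at 0, 36.7 and 226 TPM in positive cells without an ending, against 0, 0 and 69.9 TPM in negative cells, and was seen there in 6 of 8 positive and 8 of 24 negative cells. Among cells of ending 1 it was at 0, 0.286 and 578 TPM in positive cells, against 0, 0.534 and 457 TPM in negative cells. The differences were 2.98 without an ending and -0.68 with the ending 1. Myd88, the adaptor of interleukin 1 and 18 receptors, had the same pattern (2.06 and -1.14), as did Stat3 (1.75 and -0.61) and Maf, a transcription factor of ILC3s (1.82 and -1.55). No gene of the interleukin 23 pathway list (7 members used) or of the interleukin 1, interleukin 18 and TL1A list (7 used) was called. The list medians were -0.01 and 0.46. Over all genes 15.8% were called in either direction.

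The average differences of Rora, a factor of ILC development (-0.09), Id2 (0.18) and Batf (-0.32) were under 1 in size. Each averaged opposite signs without an ending and with the ending 1. These were 0.41 and -0.59 for Rora, 0.61 and -0.26 for Id2, and 0.36 and -0.99 for Batf. Gata3, a factor of group 2 ILCs that ILC3s also use, had a difference of -0.77 with the same sign in both series. In the list of 37 transcription factors, 23 were measured, 1 was called higher and 1 lower, beside 10.3% and 5.42% of all genes. Ikzf3, which encodes the zinc finger factor Aiolos (1.79), was at 0, 9.82 and 163 TPM in positive cells without an ending, against 0, 0 and 43.2 TPM in negative cells. In the other series, of ending 1, it was at 0, 0.566 and 540 TPM in positive cells, against 0, 0 and 504 TPM in negative cells. Most negative cells of both series and most positive cells of ending 1 were near 0 for Ikzf3. Ets1, a lymphoid transcription factor, had a difference of -1.11.

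Of the other effectors, Tnfsf11, which encodes RANK ligand, had a difference of 1.35. It was at 0, 0 and 125 TPM in positive cells without an ending, against 0, 0 and 157 TPM in negative cells, with 2 cells at 1 TPM or more in each group. In cells of ending 1 it was at 0, 0 and 1545 TPM in positive cells, against 0, 1.28 and 749 TPM in negative cells. Of the 4 cells of ending 1 with Il22 at 10 TPM or more, 3 had Tnfsf11 at 602, 1245 and 1545 TPM and 1 was at 0. The 9 cells with Il22 below 10 TPM had it at 0, 0 and 519 TPM, with 2 of 9 at 1 TPM or more, so the ranges overlapped. This split was made after the levels were seen. Without the positive cell R9-ILC-15 the average difference was 0.95 and Tnfsf11 was no longer called. Tnfsf14, which encodes the ligand LIGHT, had a difference of 1.58 (2.96 and 0.20). Without the positive cell R9-ILC-27-1 its difference in cells of ending 1 was -0.50.

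The lymphotoxin and TNF genes, which lie side by side on chromosome 17, were not called. Ltb was at 1 TPM or more in every cell and had a difference of 0.22. Lta reached 7 of 8 positive and 23 of 24 negative cells without an ending, and in cells of ending 1 it was at 0, 2.64 and 8.50 TPM in positive cells, against 0, 4.58 and 1518 TPM in negative cells. Tnf had differences of 1.16 and -2.04 in the 2 series. Csf2, which encodes the cytokine GM-CSF, was at 1 TPM or more in 4 of 21 positive and 6 of 46 negative cells (difference 0.38). Of the 26 cytokine and TNF family ligands, Il17a, Il21, Il10, Ifng and Areg were among 11 listed at 0 in every R9 cell.

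The list of common gamma chain receptors and their signalling genes gave 2 genes called higher of 10 measured, Il2ra and Jak3. Over all genes 10.3% were called higher. Il2ra, the interleukin 2 receptor α chain, was at 0, 57.2 and 238 TPM in positive cells without an ending, against 0, 20.5 and 204 TPM in negative cells. Among cells of ending 1 it was at 0, 0.755 and 851 TPM in positive cells, against 0, 0.929 and 158 TPM in negative cells. The differences of the 2 series averaged 1.27, and 0.99 without the positive cell R9-ILC-34-1. Jak3, the kinase bound to the common gamma chain, reached 1 TPM in 9 of 21 positive and 19 of 46 negative cells and had a difference of 1.23. This difference lay between 0.97 and 0.99 when any of the positive cells R9-ILC-15, R9-ILC-12-1 and R9-ILC-27-1 was left out. At an Il22 threshold of 10 TPM it was 0.89. Il7r (0.39) and Il2rg (-0.20) were not called.

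Subset markers showed no common direction. Among LTi-like ILC3 genes 13 were measured, 1 was called higher (Il2ra) and 1 lower (Thy1), beside 10.3% and 5.42% of all genes. The list median was 0.05. Ccr6 had a difference of 0.57 and Kit, the stem cell factor receptor, one of 0.44. Thy1, a surface glycoprotein of lymphocytes, was seen in 6 of 21 positive and 24 of 46 negative cells, and its difference of -1.16 came almost wholly from cells of ending 1 (-2.23, against -0.09 without an ending). When any of 7 of the 8 positive cells without an ending was left out, that side turned to 0.05, and at an Il22 threshold of 10 TPM the average was 0.31. Ncr1 was at 1 TPM or more in 3 of 8 positive and 7 of 24 negative cells without an ending. It was listed at 0 in all 35 cells of ending 1, so its split by Il22 could be seen in the first series alone. In its list 3 genes were measured and none was called, namely Ncr1 (0.33), Klrb1b (-0.48) and Ccl5 (0.14). Of the ILC2 genes 4 were measured and none was called. All 4 were above 0 on average, but the list median was 1.16 without an ending and -0.70 with the ending 1.

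**Figure D4:**
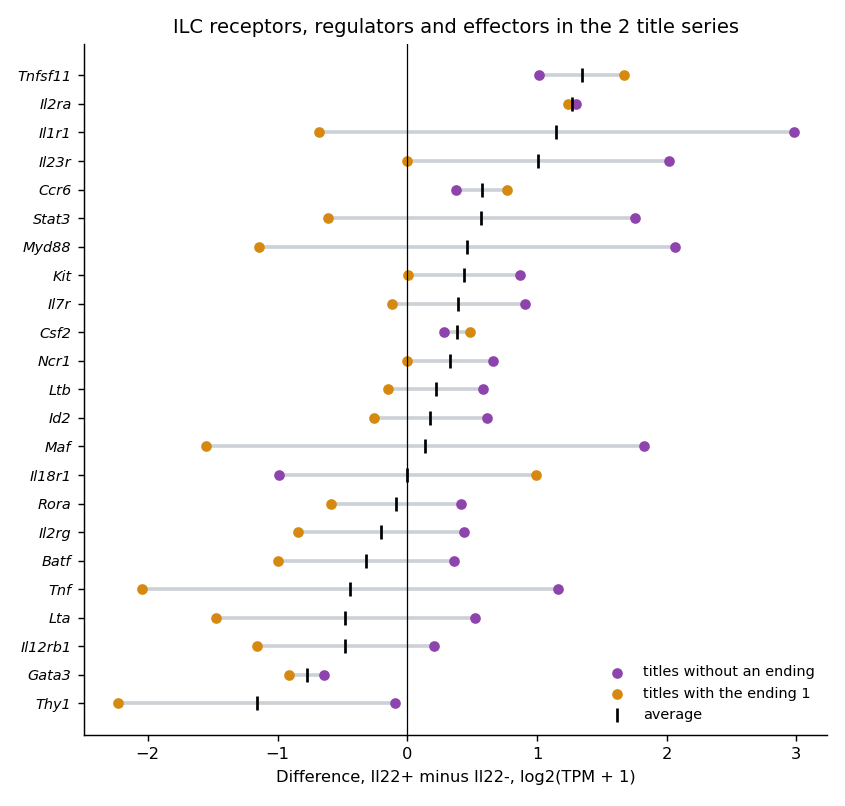
Difference of mean log2(TPM + 1), Il22-positive minus Il22-negative, of 23 ILC receptors, regulators and effectors (rows); purple points are cells without a title ending, orange points cells of ending 1, and black ticks the average. For 7 of the 23 genes both points lie on the same side of 0, and Il1r1, Myd88, Maf and Tnf lie on opposite sides.

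Activation genes were mixed. Of 18 immediate early genes measured, 2 were called higher and 1 lower, beside 10.3% and 5.42% of all genes, with a list median of 0.34. Jund, a subunit of the AP-1 factor, had a difference of 1.44 and Myc one of -1.06, which missed the limit at an Il22 threshold of 10 TPM. Dusp5, a phosphatase of ERK kinases (1.18), was called on 7 of 21 positive and 11 of 46 negative cells with 1 TPM or more. Its average difference was 0.83 to 0.93 when any of 6 positive cells was left out (R9-ILC-1, R9-ILC-3, R9-ILC-35, R9-ILC-12-1, R9-ILC-20-1 and R9-ILC-34-1), and -0.06 at an Il22 threshold of 10 TPM. Among 18 genes of the NF-kappa B system none was called higher and 2 lower, against 5.42% of all genes called lower. These were Traf2 (-1.59), an adaptor of TNF receptors, and Chuk (-1.21), a kinase subunit. At an Il22 threshold of 10 TPM the difference of Traf2 was -0.29 and it was no longer called. Chuk was listed at 0 in all 8 positive cells without an ending and reached 1 TPM in 11 of 24 negative cells there.

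Receptors for neuropeptides, lipids and metabolites (7 measured) gave no called gene, beside 15.8% of all genes, and had a median of 0.29. Among 11 gut homing genes Itgb7, the integrin β7 chain that guides lymphocytes to the gut, was called higher (1.59), beside 10.3% of all genes. It was at 10.3, 226 and 742 TPM in positive cells without an ending, against 12.6, 89.0 and 630 TPM in negative cells. With the ending 1 it was at 1.73, 264 and 1633 TPM in positive cells, against 0, 5.73 and 1346 TPM in negative cells. The groups overlapped in both series.

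Markers of other cell types were set beside these differences. Mast cell genes summed to 80.7, 1855 and 3674 TPM in positive cells without an ending (lowest, median and highest), against 61.1, 864 and 4659 TPM in negative cells. In cells of ending 1 the sum was at most 0.521 TPM in positive and 616 TPM in negative cells. Cpa3, a mast cell carboxypeptidase, reached 1 TPM in 7 of 8 positive and 23 of 24 negative cells without an ending. With the ending 1 it did so in 0 of 13 positive and 3 of 22 negative cells. The tryptase Tpsb2 reached 1 TPM in 7 of 8 positive and 24 of 24 negative cells without an ending. The chymase Cma1 did so in 7 of 8 positive and 21 of 24 negative cells there, and its difference in cells of ending 1 was 0. Mcpt2, Ms4a2 and the basophil gene Mcpt8 were listed at 0 in every R9 cell. Macrophage and dendritic cell genes had medians of 606 TPM in positive and 402 TPM in negative cells without an ending and of 0 TPM in positive and 2.86 TPM in negative cells of ending 1. Of this list Lyz2, a lysozyme, reached 1 TPM in 7 of 8 positive and 24 of 24 negative cells without an ending. With the ending 1 it did so in 2 of 13 positive and 8 of 22 negative cells. C1qc, a complement subunit, reached 1 TPM in 6 of 8 positive and 11 of 24 negative cells without an ending. With the ending 1 it did so in 0 of 13 positive and 1 of 22 negative cells. C1qb, another complement subunit, went the other way, at 1 TPM or more in 1 of 8 positive and 12 of 24 negative cells without an ending. It was listed at 0 in every cell of ending 1. C1qa reached 1 TPM in 3 of 8 positive and 7 of 24 negative cells without an ending. Lyz1 did so in 19 R9 cells, while Itgax, Siglech and Clec9a were at 0 throughout. None of the 5 macrophage and dendritic cell genes, 3 mast cell genes or 4 erythroid genes measured was called, beside 15.8% of all genes. No B cell, neutrophil or stromal gene was seen in 10 cells. Of the 4 T cell genes measured Cd3g was called higher, beside 10.3% of all genes. Its average difference was 1.25 (2.16 without an ending and 0.34 with the ending 1). It was between 0.90 and 0.98 when any of 5 positive cells was left out (R9-ILC-1, R9-ILC-15, R9-ILC-20-1, R9-ILC-28-1 and R9-ILC-34-1). The part of these cell types in the differences was not tested.

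Gut epithelial genes included the targets of interleukin 22. The epithelial list summed to 37.3, 1278 and 139578 TPM in positive cells without an ending, against 51.6, 5329 and 435978 TPM in negative cells. With the ending 1 the median was 557 TPM in positive and 690 TPM in negative cells, and Muc2 was listed at 0 in every R9 cell. Reg3g, an antimicrobial lectin of epithelial cells with close relatives in the genome, had a difference of -2.56. It was listed at 0 in all 8 positive cells without an ending, against 0, 0 and 308259 TPM in negative cells, of which 8 of 24 reached 1 TPM. Among cells of ending 1 it was at 0, 0 and 808 TPM in positive cells, against 0, 2.54 and 2174 TPM in negative cells. Fabp6, an ileal bile acid carrier, had a difference of 2.00 (3.86 without an ending and 0.13 with the ending 1). That of ending 1 lay between -0.05 and -0.02 when any of the positive cells R9-ILC-27-1, R9-ILC-41-1 and R9-ILC-6-1 was left out, and was -0.93 at an Il22 threshold of 10 TPM. Of the 4 genes measured in the list of the interleukin 22 receptor, binding protein and epithelial targets, Reg3g alone was called and the list median was -0.56. Over all genes 5.42% were called lower. These genes belong to another cell type than the one sorted, and their part in the comparison was not tested.

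In the 5 lists of cell state, 10 of 57 measured members were called in either direction (17.5%), against 15.8% of all genes. Cell cycle genes had the most, 3 higher and 1 lower of 15 measured, namely Ccnb2 (1.43), Ccnd3 (1.38), Rrm1 (1.32) and Mcm7 (-2.12), with a list median of -0.12. Mcm7 was at 0, 0 and 127 TPM in positive cells without an ending, against 0, 27.6 and 255 TPM in negative cells. In the other series, of ending 1, it was at 0, 0 and 1.36 TPM in positive cells, against 0, 0.337 and 1068 TPM in negative cells. Most cells of ending 1 had little Mcm7 in either group, and the 4 high cells there were all negative. Rrm1, a ribonucleotide reductase subunit, had a difference of -0.16 in cells of ending 1 without the positive cell R9-ILC-20-1, and an average difference of 0.87 at an Il22 threshold of 10 TPM.

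Of 14 glycolysis genes, Eno1, an enolase, was called higher (1.22) and Tpi1, triosephosphate isomerase, lower (-1.69), and the median was 0.35. At an Il22 threshold of 10 TPM these differences were 0.88 for Eno1 and -0.69 for Tpi1. Of 12 heat shock genes, Hspa8 (1.18) and Dnaja1 (1.13, and 0.99 without the positive cell R9-ILC-31-1) were called higher. Of 11 interferon-stimulated genes, Rtp4 was called higher (1.49) and Ifitm1 lower (-1.18, and -0.77 at an Il22 threshold of 10 TPM). The calls in these lists stand beside 10.3% of all genes called higher and 5.42% called lower. MHC class II genes had the highest list median, 0.62, and all 5 measured members were above 0 on average without any being called. Cd74 was at -0.35 in cells of ending 1, and the list median in wild-type cells was -0.76. Summed over the list, the median was 2726 TPM in positive and 1363 TPM in negative cells without an ending. With the ending 1 it was 10.3 TPM in positive and 25.3 TPM in negative cells. H2-Aa, a class II α chain, was at 0, 239 and 455 TPM in positive cells without an ending, against 0, 118 and 1527 TPM in negative cells, and in cells of ending 1 it reached 1 TPM in 2 of 13 positive and 1 of 22 negative cells.

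Over all 27 lists, 216 distinct genes were measured, of which 17 were called higher (7.87%) and 9 lower (4.17%), against 10.3% and 5.42% of all genes. No list with 3 or more measured members had a median beyond -0.56 or 0.62.

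**Figure D5:**
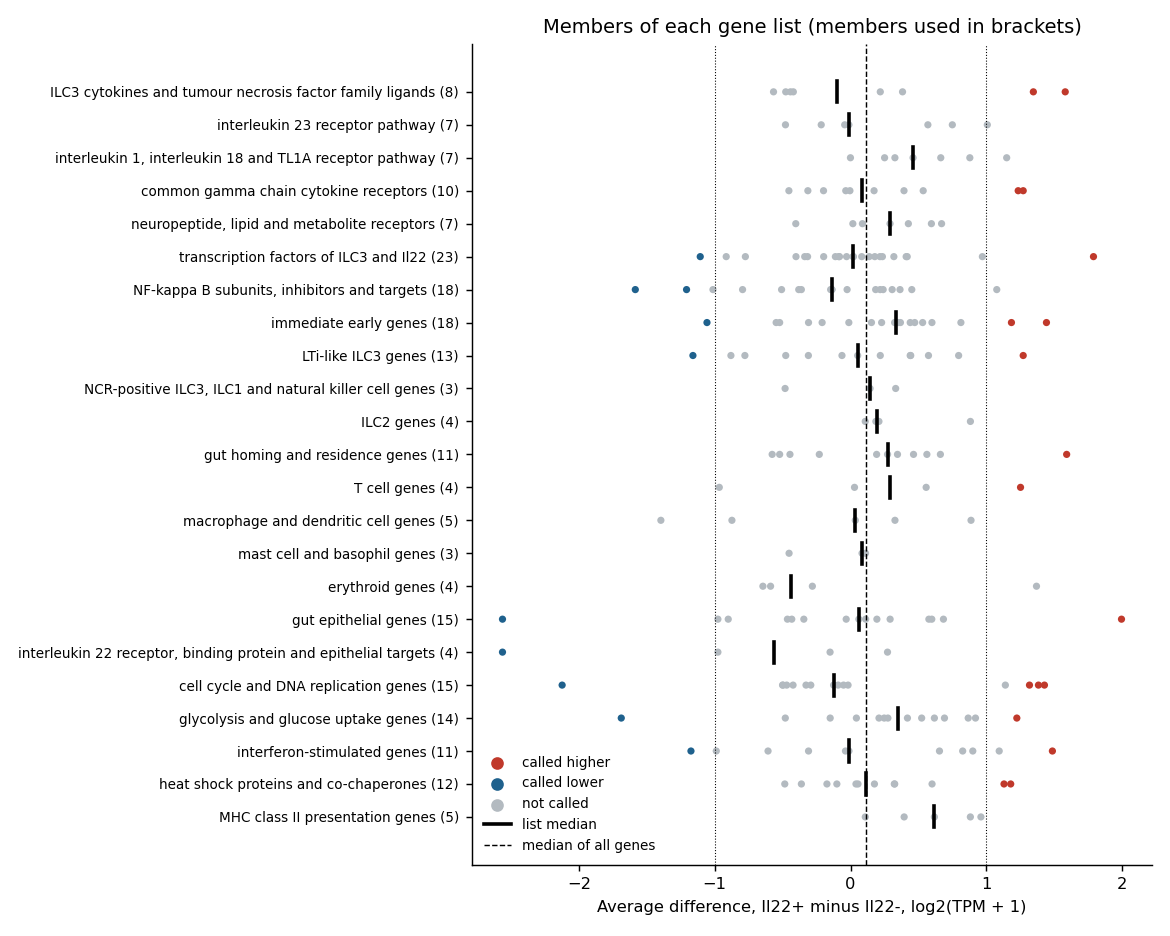
Average difference of log2(TPM + 1), Il22-positive minus Il22-negative, of each measured member (points) of 23 gene lists with 3 or more measured members (rows); red points were called higher, blue points lower and grey points neither, black bars are list medians, and the dashed line is the median of all genes, 0.12. The list medians lie between -0.56 and 0.62, and the cell cycle list has the most called members, 4.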

How the data were processed

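Per the submitters' processing notes, reads were handled with StringTie 1.3.4, HISAT2 2.1.0, bcl2fastq and SAMtools 0.1.19 (roles and order not given in the sources used here) on build mm10, and per the labels' protocols cDNA and libraries were made with Vazyme kits. The authors deposited TPM per gene symbol, with 1 column per cell, and each column sums to 1e+06. Sequencing depth cannot be read from TPM and is unknown, so genes per cell stand in for it.

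Differences were made on log2(TPM + 1) with Python 3.11.15, numpy 2.4.6, pandas 2.3.3 and scipy 1.17.1, inside each title series, and averaged with equal weight. The calculation was tested on simulated data with known shifts, in which values were normally distributed with a smaller spread than in the real cells. This checked the arithmetic only and does not tell how many genes the rule would call by chance. Genes needed 1 TPM in at least 10 of 67 R9 cells. Wild-type columns with a Pearson r above 0.8 were averaged as 1 cell. 1 wild-type column name matched its group but no single sample. Intervals of shares are exact Clopper-Pearson 95% intervals and cover counting error only.

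Genes named are the 12 largest called differences in each direction seen in 50% or more of the higher side in each series (without predicted, mitochondrial and ribosomal protein genes), 30 ILC3 genes, and up to 4 members of each list with the largest differences. The genes with the widest gaps in detection were added after their values were seen. Members, lists and rules were chosen with earlier results of these data known. Results for a few of these genes are left out. No doublet caller was run. An alternative omits cells above 4000 genes. The 15 other settings varied the pseudocount (0.1 and 10 TPM), filters, Il22 threshold, title series, scaling, gene number, cells and measure, and each of the 21 positive cells was left out in turn. Sequence and coordinates are from GENCODE M21 (GRCm38).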

Additional observations from a re-analysis of the deposited data

Results flagged for a closer look

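In 27 groups of 4 to 10 cells, the highest or lowest cell was compared with the rest of its group, and 10 groups had a cell far from the others. Such a check marks about 1 in 20 groups by chance, a rate that does not apply here because the cells were chosen by Il22 and the genes for their levels in these same cells. The values are given as a description. The first was Il22 itself, at 576 TPM in the highest of the 8 positive R9 cells without a title ending, and the next was Il22 at 283 TPM in the highest of the 6 positive wild-type cells. The other 8 were leading genes in the same 8 positive R9 cells, given as log2(TPM + 1). Serp1 stood at 18.66 and Ppp1r11 at 12.74 in their highest cells. Tbca was at 0 and Ube2v1 at 2.43 in their lowest cells. Rnh1 at 7.79, Hmox2 at 3.73, Zfp622 at 7.16 and Rsu1 at 6.86 were each above 0 in a single cell and listed at 0 in the other 7.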

How the results depend on the processing

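Counts of called genes depended on the settings. Against 547 higher and 287 lower genes, a pseudocount of 0.1 TPM gave 865 and 595 and one of 10 TPM gave 145 and 40. Cells without an ending alone gave 1265 and 523, and those of ending 1 alone gave 903 lower genes. Leaving out each gene's highest cells gave 328 and 489. Shares of cells at 1 TPM or more, called at 25 percentage points, gave 86 and 74. Il22 at 10 TPM or more against exactly 0 gave 441 lower genes. Without cells in which 1 gene held 10% or more of TPM, 1107 genes were lower, and this rested on ending 1 alone because too few positive cells without an ending remained. With an Il22 threshold of 10 TPM (17.9% of cells positive) the counts were 745 and 415, of which 313 and 162 were called at 1 TPM too. Leaving out each positive cell in turn gave 505 to 691 higher and 269 to 360 lower genes. Counting all wild-type columns as cells moved the share of called higher genes with the same sign to 61.9%. The share was then 34% for called lower genes and 51.0% over all genes used, and 3433 of 5260 genes were higher in the positive columns. At 10 TPM, 16 of the 50 named genes called at 1 TPM were no longer called, and among them the average changed sign for Thy1 (0.31) and Dusp5 (-0.062). The averages were within 1 for Serp1 (0.71), Rsu1 (-0.19), Wdr61 (-0.89), Krcc1 (-0.94), Traf2 (-0.29), Tpi1 (-0.69), Eno1 (0.88), Jak3 (0.89), Ifitm1 (-0.77) and Rrm1 (0.87), Myc fell just short of -1, and the 2 series had opposite signs for Ndufs8, Gnai3 and Fabp6. The cause was not tested. No paired analysis was possible because no test was made and title numbers name cells. With no animal named and depth unknown, none of these differences has a replicate check.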
